A study of Mus musculus with 6 samples.

Results

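The 10 genes described here form the core of the Hippo pathway. They are *Yap1* and *Wwtr1*, which encode the coactivators YAP and TAZ, the transcription factor genes *Tead1*, *Tead2*, *Tead3* and *Tead4*, and the kinase genes *Lats1*, *Lats2*, *Stk3* and *Stk4*. They were matched by gene symbol, without use of their measured values, among the 55421 genes of a count table of mouse retinas, and all 10 were found. RNA sequencing was performed on whole retinas of 2-month-old mice from 2 groups of 3 animals. Control animals (YR612, YR613 and YR615) were *Yap* flox/flox, with no Cre named in their labels. *Yap* cKO animals (YR711, YR713 and YR714) were *Yap* flox/flox and also carried *Rax-CreERT2*, a tamoxifen-dependent Cre recombinase under the *Rax* promoter. Both groups carried the floxed allele and both received 4-hydroxytamoxifen at P10 and P14. As the study describes the line, this Cre acts within the eye in Müller glia and in the non-pigmented epithelium of the ciliary body, so other retinal cells of a *Yap* cKO animal keep an intact *Yap* gene.

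In the Hippo pathway, the MST kinases phosphorylate and activate the LATS kinases, and LATS in turn phosphorylates YAP and TAZ. Phosphorylated YAP and TAZ are held in the cytoplasm or degraded. When the kinases are quiet, YAP and TAZ enter the nucleus, where they have no DNA-binding domain of their own and act by binding TEAD factors. In the adult mouse retina YAP is known mainly as a protein of Müller glia. Much of the pathway works through phosphorylation, which transcript levels do not measure.

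TEAD factors bind a short DNA element whose core is GGAATG, or CATTCC on the other strand. RefSeq promoter windows of GRCm38.p6, from 250 bases before to 50 bases after a start site, were available for 7 of the 10 genes (not for *Tead1*, *Tead4* and *Stk3*). The core was present, on either strand, in at least 1 window of *Yap1*, *Wwtr1*, *Tead3* and *Lats2*, and in 16.6% of all genes with a window (14.7% of all 32851 windows). The windows of *Tead2*, *Lats1* and *Stk4* held no match, and the match of *Lats2* lay just after the start site. *Wwtr1*, *Lats2* and *Tead3* had more than 1 window. Stretches of 60 bases around 1 match upstream of *Yap1*, *Wwtr1* and *Tead3* are printed 5′ to 3′ on the strand of the gene, since these are the coactivator and factor genes with a match. Capitals mark the core. The stretches lie on the minus strand at chr9:8004705-8004764, chr3:57576014-57576073 and chr17:28350955-28351014.
Yap1: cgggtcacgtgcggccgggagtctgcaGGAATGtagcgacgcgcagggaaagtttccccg
Wwtr1: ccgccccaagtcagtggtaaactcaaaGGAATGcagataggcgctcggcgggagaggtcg
Tead3: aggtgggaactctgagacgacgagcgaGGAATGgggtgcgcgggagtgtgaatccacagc
A match of these letters is a description of the sequence, and binding was not measured here.

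Across the 10 genes, *Yap1* fell in *Yap* cKO retinas, and no other gene passed the test. The test was edgeR's quasi-likelihood test on the counts, with Benjamini-Hochberg adjustment over the 16575 genes that passed its filter on low counts. The threshold for a call was an adjusted p of 0.05. Of all tested genes, 1.49% were called, and 0.796% also had a fold change of at least 1.5 and at least 5 TPM in 1 group. Among the Hippo core genes 9 were tested, and 1 was called, *Yap1*, which met all these criteria. *Tead4* was removed by the filter. TPM, which are counts scaled by length and library total, were computed from the counts and each gene's exonic length, so that levels can be compared between genes.

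**Figure D1:**
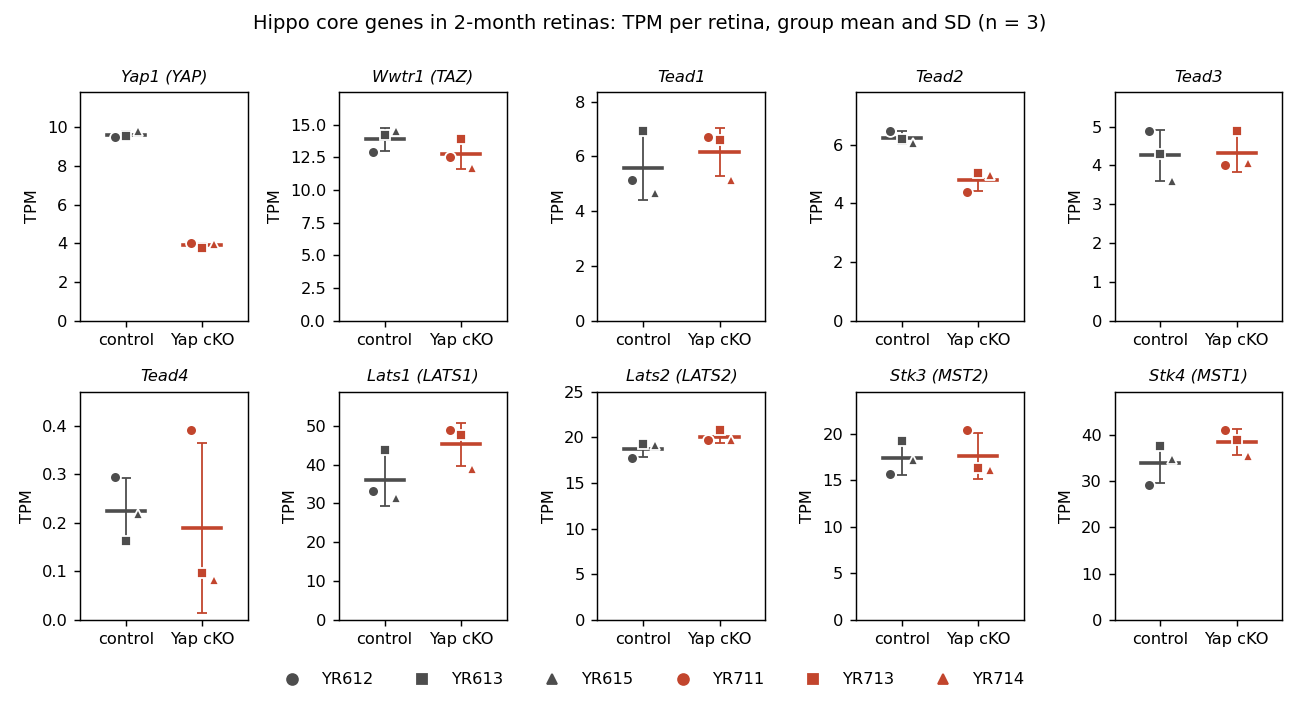
TPM of the 10 Hippo core genes (y axis, linear, starting at 0) in each control and Yap cKO retina. Points are single retinas, thick lines are group means and error bars are SD (n = 3). The Yap cKO retinas lie between 3.76 and 3.99 TPM for Yap1, below the lowest control at 9.48 TPM.

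*Yap1*, the targeted gene (ENSMUSG00000053110, chr9:7931999-8004596 of GRCm38, minus strand), measured 9.48, 9.52 and 9.83 TPM in YR612, YR613 and YR615, the controls. In *Yap* cKO YR711, YR713 and YR714 it had 3.99, 3.76 and 3.94 TPM. All *Yap* cKO retinas were thus far below all control retinas, and the retinas of each group were close to one another. The mean was 9.61 ± 0.189 TPM (SD, n = 3) in the controls and 3.90 ± 0.120 TPM after *Yap* deletion, or 40.5% of control. The log2 fold change was -1.36 (standard error 0.093, 95% interval -1.57 to -1.15), with an adjusted p of 0.000282 by the quasi-likelihood test. These values rest on 579 to 699 counts per control retina and 236 to 303 per *Yap* cKO retina. Counts were made per gene over all exons, so transcripts of a recombined allele are still counted outside the deleted part. In a whole retina, fewer cells of a type and less RNA per cell cannot be told apart.

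*Wwtr1* encodes TAZ, the paralogue of YAP (ENSMUSG00000027803, chr3:57455649-57575910). It had 12.9, 14.3 and 14.6 TPM in the control retinas and 12.5, 13.9 and 11.7 TPM in the *Yap* cKO retinas, in the same order of animals. The groups overlapped, since YR713 lay above control YR612. Its log2 fold change was -0.18 (standard error 0.099), with an adjusted p of 0.303 by the quasi-likelihood test. The 95% interval of -0.41 to 0.038 leaves room for a fall of *Wwtr1* to 75.5% of control, and for a rise of at most 1.03-fold. As CPM scaled by TMM factors, which uses another total than TPM, the *Wwtr1* values of the groups did not overlap (16.8 to 18.3 in control and 14.5 to 16.8 in *Yap* cKO retinas, with 16.81 in the lowest control and 16.77 in YR713).

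The summed level of both coactivators was lower in every *Yap* cKO retina than in any control. It was 22.4, 23.8 and 24.4 TPM in the controls and 16.5, 17.7 and 15.7 TPM in *Yap* cKO retinas, a mean of 23.5 ± 1.03 against 16.6 ± 1.03 TPM (SD, n = 3), or 70.7% of control. *Wwtr1* was above *Yap1* in every retina of both groups. It made up 59.1% ± 1.27 of the sum in control and 76.5% ± 2.03 in *Yap* cKO retinas, and the ratio of *Wwtr1* to *Yap1* was 1.45 ± 0.075 and 3.27 ± 0.384. For the sum, the share and the ratio an exact two-sided permutation test gave p = 0.1, the smallest that 3 retinas against 3 can give. All of these quantities contain *Yap1*, the targeted gene, so their p-values do not test *Wwtr1* on its own. The share and the ratio were higher although *Wwtr1* itself was not, with a mean of 13.9 TPM in the controls and 12.7 TPM in *Yap* cKO retinas.

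**Figure D2:**
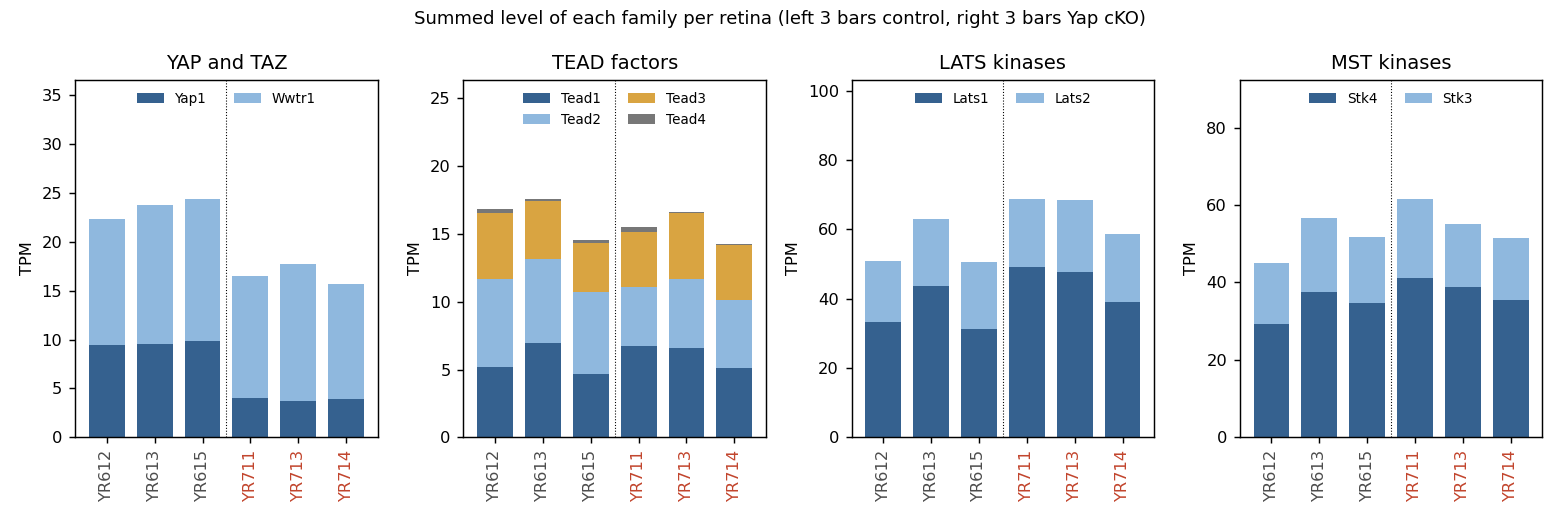
Summed TPM (y axis) of YAP and TAZ, the TEAD factors, the LATS kinases and the MST kinases in each retina (x axis, controls left and Yap cKO right of the dotted line), with colours for the single genes. The YAP and TAZ sum is 22.4 to 24.4 TPM in controls and 15.7 to 17.7 TPM in Yap cKO retinas, while the other sums overlap between the groups.

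The TEAD genes encode the DNA-binding partners of YAP and TAZ. *Tead2* (ENSMUSG00000030796, chr7:45215753-45233644) was the TEAD gene whose groups did not overlap. It had 6.49, 6.19 and 6.06 TPM in the control retinas and 4.38, 5.04 and 4.98 TPM in the *Yap* cKO retinas. Every *Yap* cKO retina was below every control retina, a mean of 6.25 ± 0.221 against 4.80 ± 0.365 TPM (SD, n = 3). The log2 fold change of *Tead2* was -0.43 (standard error 0.123, 95% interval -0.71 to -0.16). Its unadjusted p was 0.0061, and its adjusted p of 0.109 by the quasi-likelihood test did not pass the threshold. The counts behind these *Tead2* values were low, 134 to 223 per retina.

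*Tead1* (ENSMUSG00000055320, chr7:112679318-112906807) had 5.15, 6.95 and 4.68 TPM in the controls and 6.71, 6.60 and 5.13 TPM in *Yap* cKO retinas. The highest value was that of control YR613, and the groups overlapped. Its log2 fold change was 0.082 (standard error 0.149, 95% interval -0.25 to 0.42, adjusted p = 0.771 by the quasi-likelihood test). *Tead3* (ENSMUSG00000002249, chr17:28331671-28350817) had 4.90, 4.28 and 3.59 TPM in the controls and 4.01, 4.88 and 4.05 TPM in *Yap* cKO retinas. The *Tead3* values overlapped as well, with a log2 fold change of -0.034 (standard error 0.154, 95% interval -0.38 to 0.31, adjusted p = 0.913 by the same test). *Tead4* (ENSMUSG00000030353, chr6:128224288-128300823) was near the lower limit of detection, with 7, 4 and 6 counts in control and 9, 3 and 2 counts in *Yap* cKO retinas, or between 0.0813 and 0.392 TPM. A difference in *Tead4* was not detectable at this depth.

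In sum the TEAD genes had 16.3 ± 1.58 TPM in the controls and 15.5 ± 1.18 TPM in the *Yap* cKO group (SD, n = 3, exact permutation p = 0.4). Within that sum, *Tead2* contributed 38.6%, 35.2% and 41.7% in control and 28.3%, 30.3% and 35.0% in *Yap* cKO retinas. These shares did not overlap, although control YR613 and *Yap* cKO YR714 were nearly equal (35.2% and 34.96%), and the exact permutation p was 0.1. *Tead1* had 34.1% ± 4.76 of the sum in control and 39.7% ± 3.65 in *Yap* cKO retinas (exact permutation p = 0.2), and *Tead3* 26.0% ± 2.66 and 27.9% ± 1.81 (exact permutation p = 0.3). *Tead2* was thus the TEAD gene with the highest mean in control retinas, and *Tead1* the one with the highest mean in *Yap* cKO retinas.

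*Lats1* and *Lats2* encode the kinases that phosphorylate YAP and TAZ. *Lats1* (ENSMUSG00000040021, chr10:7681214-7716460) had 33.2, 43.7 and 31.3 TPM in the control retinas and 49.0, 47.7 and 39.0 TPM in the *Yap* cKO retinas. It was higher in most *Yap* cKO retinas, but control YR613 lay above *Yap* cKO YR714. *Lats1* had a log2 fold change of 0.27 (standard error 0.124, 95% interval -0.0071 to 0.55, adjusted p = 0.242 by the quasi-likelihood test). Without control YR613 it was 0.41 and *Lats1* was called (adjusted p = 0.0449 by the same test). Calls rose in the whole table as well, to 1490 of 16858 tested genes without YR613, against 247 of 16575 with no retina left out.

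*Lats2* (ENSMUSG00000021959, chr14:57689662-57758388) had 17.7, 19.3 and 19.2 TPM in the controls and 19.7, 20.8 and 19.7 TPM in *Yap* cKO retinas. The TPM of the groups did not overlap, but the means of 18.7 ± 0.870 and 20.1 ± 0.660 TPM (SD, n = 3) were close. Its log2 fold change was 0.044 (standard error 0.074, 95% interval -0.12 to 0.21, adjusted p = 0.751 by the quasi-likelihood test). In CPM scaled by TMM factors the *Lats2* values overlapped. Over 42.4% of its exonic length *Lats2* shares the strand with another annotated gene, Gm49361, which had 0 counts in all 6 retinas. Fragments that fall in shared exons are not assigned by default, so the TPM of *Lats2* may be too low. Over its 4016 unshared exonic bases *Lats2* had 32.5 ± 1.51 TPM in the controls and 34.8 ± 1.15 TPM in *Yap* cKO retinas.

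Together, *Yap1*, *Tead2* and *Lats2* were the genes whose TPM did not overlap between the groups, 3 of the 10. Of all tested genes, 24.3% had TPM that did not overlap. The LATS sum was 54.8 ± 7.11 TPM in the controls and 65.3 ± 5.75 TPM in the *Yap* cKO group (SD, n = 3, exact permutation p = 0.2), and *Lats1* made up 65.5% ± 3.71 and 69.1% ± 2.46 of it (exact permutation p = 0.2). With *Lats2* taken over its unshared bases, a choice made after seeing the data, the sum was 68.5 ± 7.47 and 80.1 ± 6.01 TPM and *Lats1* made up 52.3% ± 4.11 and 56.3% ± 2.82 of it (exact permutation p = 0.2 for each).

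*Stk4* and *Stk3* encode MST1 and MST2, the kinases upstream of LATS. *Stk4* (ENSMUSG00000018209, chr2:164070322-164155524) had 29.3, 37.5 and 34.7 TPM in the controls and 41.1, 38.8 and 35.5 TPM in *Yap* cKO retinas. The groups overlapped, and the lowest value was that of control YR612. Its log2 fold change was 0.13 (standard error 0.090, 95% interval -0.072 to 0.33, adjusted p = 0.414 by the quasi-likelihood test). *Stk3* (ENSMUSG00000022329, chr15:34875496-35178921) had 15.7, 19.2 and 17.2 TPM in the controls and 20.5, 16.3 and 16.1 TPM in *Yap* cKO retinas. *Stk3* was highest in YR711 and lowest in control YR612, with a log2 fold change of -0.036 (standard error 0.107, 95% interval -0.28 to 0.21, adjusted p = 0.864 by the same test). The MST sum was 51.2 ± 5.91 TPM in the controls and 56.1 ± 5.07 TPM in the *Yap* cKO group (SD, n = 3, exact permutation p = 0.5). The difference in this sum was 4.93 TPM, and 1.83 TPM without control YR612 or 1.84 TPM after correction for gene length, while the log2 fold change of *Stk4* was 0.056 without YR612. *Stk4* supplied 66.0% ± 0.925 and 68.6% ± 1.82 of the sum (exact permutation p = 0.2). After the length correction these shares did not overlap (exact permutation p = 0.1), although control YR615 and *Yap* cKO YR711 were nearly equal (66.84% and 66.86%).

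**Figure D3:**
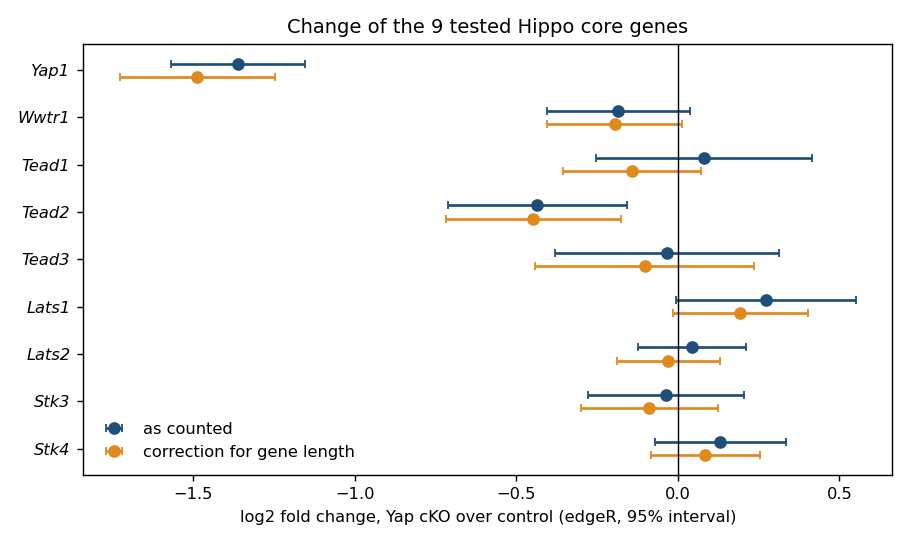
Log2 fold change of Yap cKO over control (x axis) for the 9 tested Hippo core genes, with 95% intervals, as counted (blue) and after each retina was corrected for gene length (orange). Yap1 stands at -1.36 and -1.49, and the intervals of Yap1 and Tead2 alone exclude 0 in both fits.

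The kinases were the most abundant of the 10 transcripts and the TEAD factors, with *Yap1* in *Yap* cKO retinas, the least. In control retinas the order of mean TPM was *Lats1*, *Stk4*, *Lats2*, *Stk3*, *Wwtr1*, *Yap1*, *Tead2*, *Tead1*, *Tead3* and *Tead4*. The ranges of *Lats1* and *Stk4* overlapped, as did those of *Lats2* and *Stk3* and those of *Tead2*, *Tead1* and *Tead3* from one to the next, although *Lats2* was above *Stk3* and *Tead1* above *Tead3* within each of the 3 control retinas. The place of *Lats2* depends on the length used. Over its unshared bases it had 30.8 to 33.5 TPM in the controls, which is above *Stk3* (15.7 to 19.2 TPM) and overlaps *Stk4* and *Lats1*. Each of the 4 kinase transcripts was above *Wwtr1* and *Yap1* in every retina. In *Yap* cKO retinas *Yap1* moved from rank 6 to rank 9, below *Tead3* (4.31 ± 0.489 TPM) and above *Tead4*. The order of the kinases and of *Wwtr1* was the same in both groups, and among neighbours *Lats1* and *Stk4*, *Lats2* and *Stk3*, and *Tead2* and *Tead3* overlapped in the *Yap* cKO retinas.

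Values of several of these genes varied together with a gene length trend of the retinas. For each retina, relative expression (log2, minus the 6-retina mean) was correlated with exonic length over the tested genes, a description in which genes are not replicates. Long genes were relatively high in YR613, YR711 and YR713 (Spearman's rho 0.172, 0.396 and 0.385) and relatively low in YR612, YR615 and YR714 (-0.413, -0.405 and -0.151). The highest values were those of *Yap* cKO retinas and the lowest those of controls, so the trend partly coincided with the groups. A correction for it can thus also take out a difference between the groups that goes with gene length, which was not tested. Transcripts of *Tead1* (13570 exonic bases, the longest of the 10 genes) and *Lats1* (7297 bases) were highest in YR613, YR711 and YR713, the retinas in which long genes were relatively high. When each retina was corrected for gene length, the log2 fold change of *Tead1* was -0.14 and that of *Lats2* -0.029, opposite in sign to the values above, and that of *Lats1* was 0.19 (adjusted p = 0.282 by the quasi-likelihood test). With the same correction *Yap1* was at -1.49 and *Tead2* at -0.45 (adjusted p = 0.0807 by the same test). The TPM of *Yap1* and *Tead2* still did not overlap between the groups after the correction, while those of *Lats2* did. The share of all tested genes without overlap was 24.3% before the correction and was not computed after it. The TEAD sum, which overlapped as counted, was after the correction 17.1 ± 1.39 TPM in the controls and 14.7 ± 0.688 TPM in the *Yap* cKO group without overlap (SD, n = 3, exact permutation p = 0.1).

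**Figure D4:**
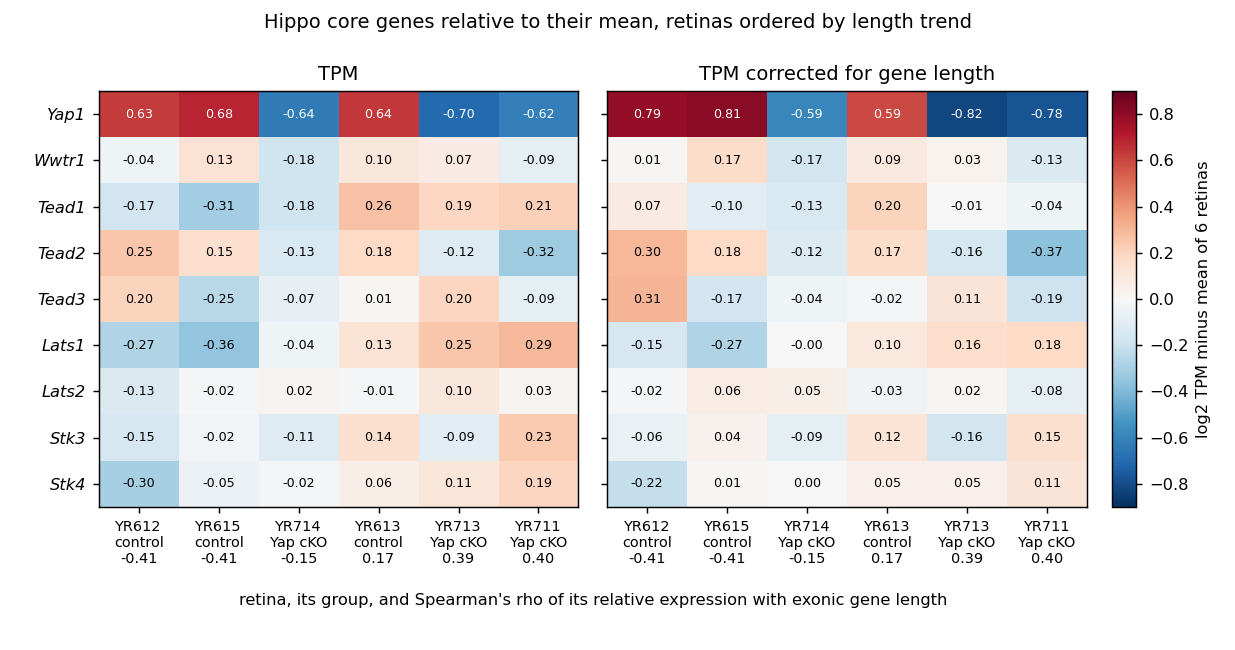
Log2 TPM of 9 Hippo core genes minus the mean of the 6 retinas (colour and printed value), before (left) and after (right) correction for gene length. Retinas are ordered by Spearman's rho of relative expression with exonic length, printed under each; Tead1 runs from -0.31 to 0.26 before the correction and from -0.13 to 0.20 after it.

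The rest of the pathway was examined in 6 lists of 50 genes in all, of which 48 were tested. Of these, 1 rose, *Strip2*, and 0 fell. The median change was 0.051 on the log2 scale, with a range of -0.71 to 0.69, and the median of all tested genes was 0.0017. A log2 fold change within 0.25 of 0 was found for 41 of the 48, and for 67.8% of all tested genes. *Strip2* encodes a scaffold of STRIPAK, the phosphatase complex that counteracts MST. It had 33.1, 41.2 and 33.2 TPM in the controls and 63.1, 63.9 and 53.4 TPM in *Yap* cKO retinas, which did not overlap. On the log2 scale *Strip2* rose by 0.69 (standard error 0.098, adjusted p = 0.0119 by the quasi-likelihood test), and by 0.59 with the correction for gene length. Leaving out 1 retina ended the *Strip2* call for YR612 (adjusted p = 0.0841 by the same test), YR615 (0.0856) and YR713 (0.0648). Of the 12 STRIPAK genes tested, the other 11 were not called.

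No gene was called in the other pathway lists. The 3 adaptor genes *Sav1*, *Mob1a* and *Mob1b*, whose proteins bind MST and LATS, had log2 fold changes between -0.11 and 0.18, and *Mob1a*, the most abundant, had 38.2 ± 0.480 TPM in the controls and 37.3 ± 3.57 TPM in *Yap* cKO retinas. The 11 upstream regulators had a median of 0.059. The most abundant of them, *Nf2*, which encodes the LATS-recruiting protein merlin, had 57.6 ± 6.36 and 69.7 ± 2.88 TPM and a log2 fold change of 0.22, with an adjusted p of 0.185 by the quasi-likelihood test. The 9 MAP4K and NDR kinase genes, which act beside MST and LATS, had a median of 0.15, with *Map4k3* at 47.3 ± 6.71 and 55.1 ± 5.49 TPM. The 11 genes of proteins that retain or degrade phosphorylated YAP had a median of 0.077, and their summed TPM did not overlap between the groups (2582 to 2764 in control and 2838 to 2908 in *Yap* cKO retinas). TPM did not overlap for 24.3% of all single tested genes, and the lowest adjusted p among these 11 was 0.185 by the quasi-likelihood test. *Ywhae*, the most abundant of these, had 1016 ± 29.0 and 1018 ± 10.98 TPM. Of the 4 genes of VGLL cofactors, which bind TEAD, *Vgll3* and *Vgll4* were tested, and *Vgll1* and *Vgll2* had 0 counts in all retinas. *Vgll4* had 11.7 ± 0.238 and 12.2 ± 1.18 TPM.

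Among 22 known target genes of YAP and TAZ, 21 were tested, and at the threshold 0 rose and 1 fell. Of all tested genes, 1.49% were called in either direction. The median of their log2 fold changes was -0.034, with 10 above 0 and 11 below, and a range of -1.76 to 0.41. *Ccn1* was at -1.38 but was not called (adjusted p = 0.0624 by the quasi-likelihood test). It had 3.83 to 8.96 TPM in the controls and 2.10 to 2.73 TPM in *Yap* cKO retinas. *F3* (-0.53, adjusted p = 0.0834), *Ptpn14* (-0.71, 0.0904) and *Amotl2* (-0.34, 0.0967) were not called by the same test either. Among the targets above 0, *Rbms3* had the lowest adjusted p (0.122 by the same test, log2 fold change 0.41). *Lats2* is 1 of these 22, and *Ptpn14* is also among the upstream regulators. The called gene was *Ccn2*, a secreted matrix protein gene widely used as a readout of YAP activity. It had 55.9, 38.7 and 72.4 TPM in the controls and 16.6, 16.1 and 18.8 TPM in *Yap* cKO retinas. The control retinas differed more among themselves than the *Yap* cKO retinas did, and the groups did not overlap. On the log2 scale the change of *Ccn2* was -1.76 (standard error 0.208, adjusted p = 0.00479 by the quasi-likelihood test).

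**Figure D5:**
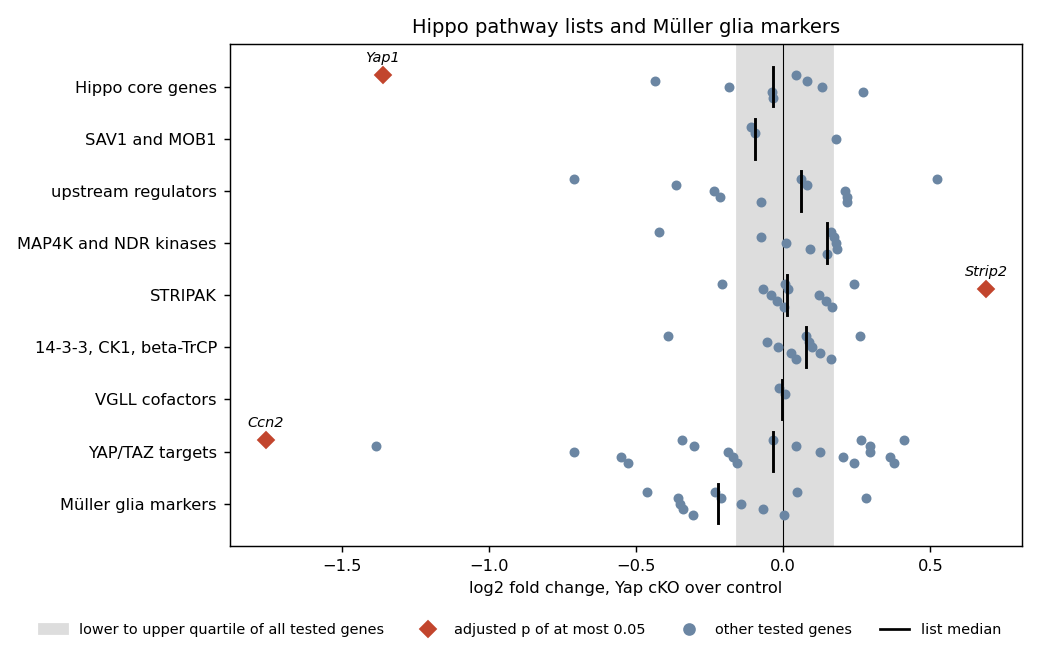
Log2 fold change of Yap cKO over control (x axis) of the tested genes of each list (rows). Red diamonds mark called genes, black bars list medians and the grey band the range from the lower to the upper quartile of all tested genes (-0.16 to 0.17). Yap1, Strip2 and Ccn2 are the called genes shown, and the list medians lie within the band except that of the Müller glia markers at -0.22.

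The retinal label fitted the markers, with summed rod genes between 48696 and 54988 TPM. Total counts were 24261799 to 28641877 per control retina and 25972334 to 35067068 per *Yap* cKO retina. Markers of Müller glia and ciliary non-pigmented epithelium, the cells that can carry the recombined allele, and of other cell types were measured beside *Yap1*. Of 12 Müller glia markers, all tested and detected, 0 were called. Their median was -0.22 on the log2 scale, with 9 below 0 and 3 above, of which *Kcnj10* was the highest at 0.28. *Rlbp1* had the lowest adjusted p (0.0540 by the quasi-likelihood test) and a log2 fold change of -0.36. It had 908 to 967 TPM in the controls and 718 to 789 TPM in *Yap* cKO retinas. *Glul*, the most abundant of the 12, had 3017 ± 118 and 2711 ± 259 TPM. The summed level of the 12 markers was 7993 to 8293 TPM in the controls and 7041 to 7360 TPM in *Yap* cKO retinas. Of 7 markers of ciliary non-pigmented epithelium, 6 were tested and 2 fell, *Optc* (-3.41) and *Ltbp2* (-4.08). The median of the 6 was -1.13 on the log2 scale, and 5 of them were below 0. Their summed TPM overlapped (308 to 324 and 284 to 358), and most of that sum was *Aqp1*, the 1 marker above 0 (0.29, adjusted p = 0.126 by the quasi-likelihood test). The 6 pigment cell markers summed to 71.2 to 78.5 TPM in the controls and 17.2 to 48.3 TPM in *Yap* cKO retinas, and *Pmel* was called (-1.89), a call that ended without YR612, YR615 or YR711 (adjusted p = 0.160, 0.157 and 0.0717 by the quasi-likelihood test). *Rax*, whose promoter drives the Cre and which is counted with the Müller glia markers, had 63.0, 47.5 and 52.2 TPM in the controls and 34.9, 43.2 and 55.7 TPM in *Yap* cKO retinas, which overlapped. The part of these differences in the level of *Yap1*, *Tead2* or the other genes was not tested. Retinal pigment epithelium markers summed to 620 to 686 TPM in the controls but to 193 TPM at the lowest and 668 TPM at the highest in *Yap* cKO retinas. All 5 of them were below 0 on the log2 scale, with a median of -0.70, and 0 were called. *Rpe65* had 14.3, 30.7 and 68.6 TPM in YR711, YR713 and YR714 and at least 70.5 TPM in the controls. *Aldh1l1* was the 1 of 3 genes listed as astrocyte markers that was called (-0.79), with *Gfap* at -0.33 and *Pax2* at 0.17. The cell type in which *Aldh1l1* fell was not tested. *Col1a2* was the 1 of 4 tested fibroblast markers called (-2.16). The other fibroblast markers lay between -0.049 and 0.076, and the astrocyte and fibroblast sums barely separated (50.7 against 50.5 TPM and 10.82 against 10.76 TPM, lowest control against highest *Yap* cKO retina). Sums of endothelium, mural cell, microglia and rod markers overlapped, and none of these genes was called.

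Lastly, the genes whose profile over the 6 retinas was closest to that of *Yap1* were listed, by the root mean square distance of centred log2 CPM. The median distance of all genes was 0.695. The closest were *Cryab* (distance 0.0933), Gm12963 (0.105), *Piezo1* (0.106), *Aass* (0.109) and *Folh1* (0.118). *Cryab*, which encodes a small heat shock protein, had 104, 96.6 and 113 TPM in the controls and 37.4, 38.7 and 42.1 TPM in *Yap* cKO retinas. *Piezo1*, the gene of a mechanically activated ion channel, had 2.77 ± 0.131 TPM in the controls and 1.25 ± 0.077 TPM in the *Yap* cKO group (SD, n = 3). *Aass*, which encodes an enzyme of lysine breakdown, had 5.07 ± 0.343 and 1.88 ± 0.248 TPM, and *Folh1*, which encodes a glutamate carboxypeptidase, 13.4 ± 0.837 and 6.10 ± 0.543 TPM. Each of these 4 genes thus had its control retinas well above its *Yap* cKO retinas, as *Yap1* did. Gm12963 had 1.40 ± 0.077 and 0.432 ± 0.062 TPM. Since *Yap1* separates the groups, the genes nearest to it do so by the way they were chosen.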

How the data were processed

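Retinas of 3 control and 3 *Yap* cKO mice were compared. Reads were mapped by the authors with STAR 2.7.3a (version per the submitters' processing notes) to GRCm38, and featureCounts assigned fragments to the exons of each gene with strand setting 2 and annotation release 98, per the file headers. The deposited values are counts without normalization, and the table also gives exonic lengths. Of 55421 genes listed, 55154 received a symbol from the reference annotation.

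Counts were tested in R 4.3.3 with edgeR 4.0.16 (filterByExpr, TMM normalization, quasi-likelihood test, no covariate). TMM factors lay between 0.986 and 1.02 and the common dispersion was 0.0126. TPM, sums and shares were computed from counts and lengths. P-values of the quasi-likelihood test set the difference between the groups against the variation between animals, with 3 per group. That variation was estimated with information from all tested genes. Exact permutation tests were two-sided. The edgeR fit, with and without the correction for gene length, was tested on simulated counts. *Lats2* over unshared exonic bases was added after seeing the data.

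Alternatives were library size alone or median ratios for scaling, DESeq2 1.42.0, edgeR's likelihood ratio test, limma-voom (limma 3.58.1), no filter or 1 CPM in 3 retinas, offsets corrected for gene length (loess, span 0.3), other fold change or TPM minimums, and each retina left out. Named genes were the 10 Hippo core genes, the called genes of each list or else its most abundant gene, and the 5 genes closest to *Yap1* (log2 CPM, prior count 2). Genes and lists were chosen with earlier results of these data known. No protein sequence was used here.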

Additional observations from a re-analysis of the deposited data

How the results depend on the processing

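*Yap1* was called under all 8 other settings (log2 fold change -1.49 to -1.36) and with each retina left out (-1.39 to -1.33, adjusted p by the quasi-likelihood test between 0.000236 and 0.00543). The number of Hippo core genes called was 1 under the other settings and 1 to 2 with a retina left out. The adjusted p of *Tead2* was 0.0573 to 0.108 under the other settings and 0.0666 to 0.361 with a retina left out. Some small differences changed sign, and the cause was not tested. With the correction for gene length *Tead1* was at -0.14 and *Lats2* at -0.029. *Tead1* was at -0.035 without control YR615, and *Tead3* at 0.10 without control YR612 and 0.017 without *Yap* cKO YR711. *Stk3* was at 0.021 without control YR613, 0.021 without *Yap* cKO YR713 and 0.0057 without *Yap* cKO YR714. *Tead1* thus ranged from -0.035 to 0.24, *Tead3* from -0.15 to 0.10 and *Stk3* from -0.15 to 0.021 with a retina left out. Length-corrected TPM gave differences, *Yap* cKO minus control, of -8.11 in the YAP and TAZ sum and -2.41 in the TEAD sum, against -6.89 and -0.864 TPM without the correction. The 132 genes that met all criteria in the whole table became 263 with DESeq2, 291 with the likelihood ratio test, 369 without a filter, 247 without the fold change and TPM minimums, and 38 to 516 with a retina left out (516 when YR613 was left out, 448 for YR714, 104 for YR711, 68 for YR713, 40 for YR612 and 38 for YR615). *Tead4* without the filter had a log2 fold change of -0.37 (adjusted p = 0.802 by the quasi-likelihood test). No paired analysis was possible because the animals of the groups share no number in the labels. Depth limits *Tead4*, with at most 9 counts per retina.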
